A study of Mus musculus with 12 samples.

Results

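The genes described here are those of voltage-gated sodium and calcium channels, taken as every row of the expression tables whose symbol begins with Scn or Cacn and names a subunit (Scn followed by a number and a or b, or Cacna, Cacnb and Cacng). There were 39 of 48526 genes, 13 of sodium channels and 26 of calcium channels. By role, 19 encode the pore-forming subunit and 20 an auxiliary subunit. The gene of the sodium channel alpha subunit Scn2a stands in the tables under its older symbol Scn2a1, outside that naming rule, and is given only as a neighbour.

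RNA of the mouse cortex was measured in 12 libraries from untreated C57Bl/6 mice, in 4 groups of 3 set by genotype and by age, 3 or 10 months. The transgenic genotype was TAU58/2, a line in which neurons express human tau carrying the P301S mutation from a Thy1 promoter, and the controls were non-transgenic. The study asked how the cortex of these mice differs from that of controls at both ages. Values are FPKM, fragment numbers scaled by transcript length and by the mapped fragments of the library, so levels well above 0 can be set beside each other between genes. Within a group, values are listed in the order of replicates 1, 2 and 3.

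Voltage-gated channels open when the membrane depolarises. Sodium channels carry the upstroke of the action potential, through a large alpha subunit that forms the pore by itself and beta subunits that tune its gating and anchor it. Calcium channels let in the calcium that triggers transmitter release and gene expression, through an alpha1 pore whose delivery to the membrane and gating depend on beta and alpha2delta subunits. Several of the gamma subunits, called transmembrane AMPA receptor regulatory proteins, bind AMPA-type glutamate receptors and carry them to the synapse.

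FPKM totals were 125933 to 158077 per library, and 12828 to 13914 genes had a value above 0. The tables hold no read counts, so depth is unknown and no counting interval is given. A value of exactly 0 is reported as listed at 0, since it can be a failed estimate. For values close to 0 as well, a failed estimate and a low level cannot be told apart in these tables. The label check differed between the ages. Mapt, the mouse tau gene, read 6.64, 12.0 and 7.47 FPKM in the 3-month controls and 47.6, 47.5 and 43.3 in the 3-month transgenics, so the labelled groups were apart. At 10 months it read 42.7, 8.13 and 9.08 in the libraries labelled control and 42.6, 12.4 and 3.31 in those labelled transgenic, and the groups overlapped. Thy1, whose promoter the transgene uses, split the same way at 3 months (114, 105 and 140.5 against 441, 417 and 409.6) and overlapped at 10 months (115, 314 and 176 against 172, 114 and 159). Every direction given below that uses the 10-month groups, between genotypes or between ages, rests on labels that these genes did not follow.

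The cortex label was checked with marker genes. The summed excitatory neuron markers read 215 to 705 FPKM per library, and the inhibitory neuron markers 67.6 to 579. Of the inhibitory markers, Sst alone read 0 to 492 FPKM. The skeletal muscle markers were at 0 in all libraries. The summed markers of the striatum reached 51.3 FPKM, those of the thalamus 11.7 and those of the choroid plexus 729. In the libraries of these highest sums, Ppp1r1b alone read 45.9, Calb2 10.9 and Ttr 728. The sums therefore do not stand for the other markers of their lists. The pituitary markers summed to 13470 FPKM in the 10-month transgenic 1 library and to at most 53.8 in the others. In bulk tissue, fewer cells of a type and less RNA per cell cannot be told apart.

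The deposited values divided along the roles of the subunits. Of the 20 auxiliary subunit genes, 12 had a mean of at least 1 FPKM over the 12 libraries, and of the 19 pore-forming genes 1 did, Scn8a. Summed over genes, the auxiliary subunits reached 340.0 to 474 FPKM per library (median 395) and the pore-forming subunits 0.103 to 8.60 (median 3.59). The lowest auxiliary sum was therefore far above the highest pore-forming sum. Of the pore-forming genes, 16 of 19 never reached 0.1 FPKM in any library, against 4 of 20 auxiliary genes and 42.4% of the 21683 protein-coding genes in the tables. Pore-forming genes listed at 0 in all 12 libraries numbered 8, among them Cacna1d, Scn4a and Scn10a, and auxiliary genes 2, Cacna2d3 and Cacng1. Of protein-coding genes, 35.2% were listed at 0 throughout.

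**Figure D1:**
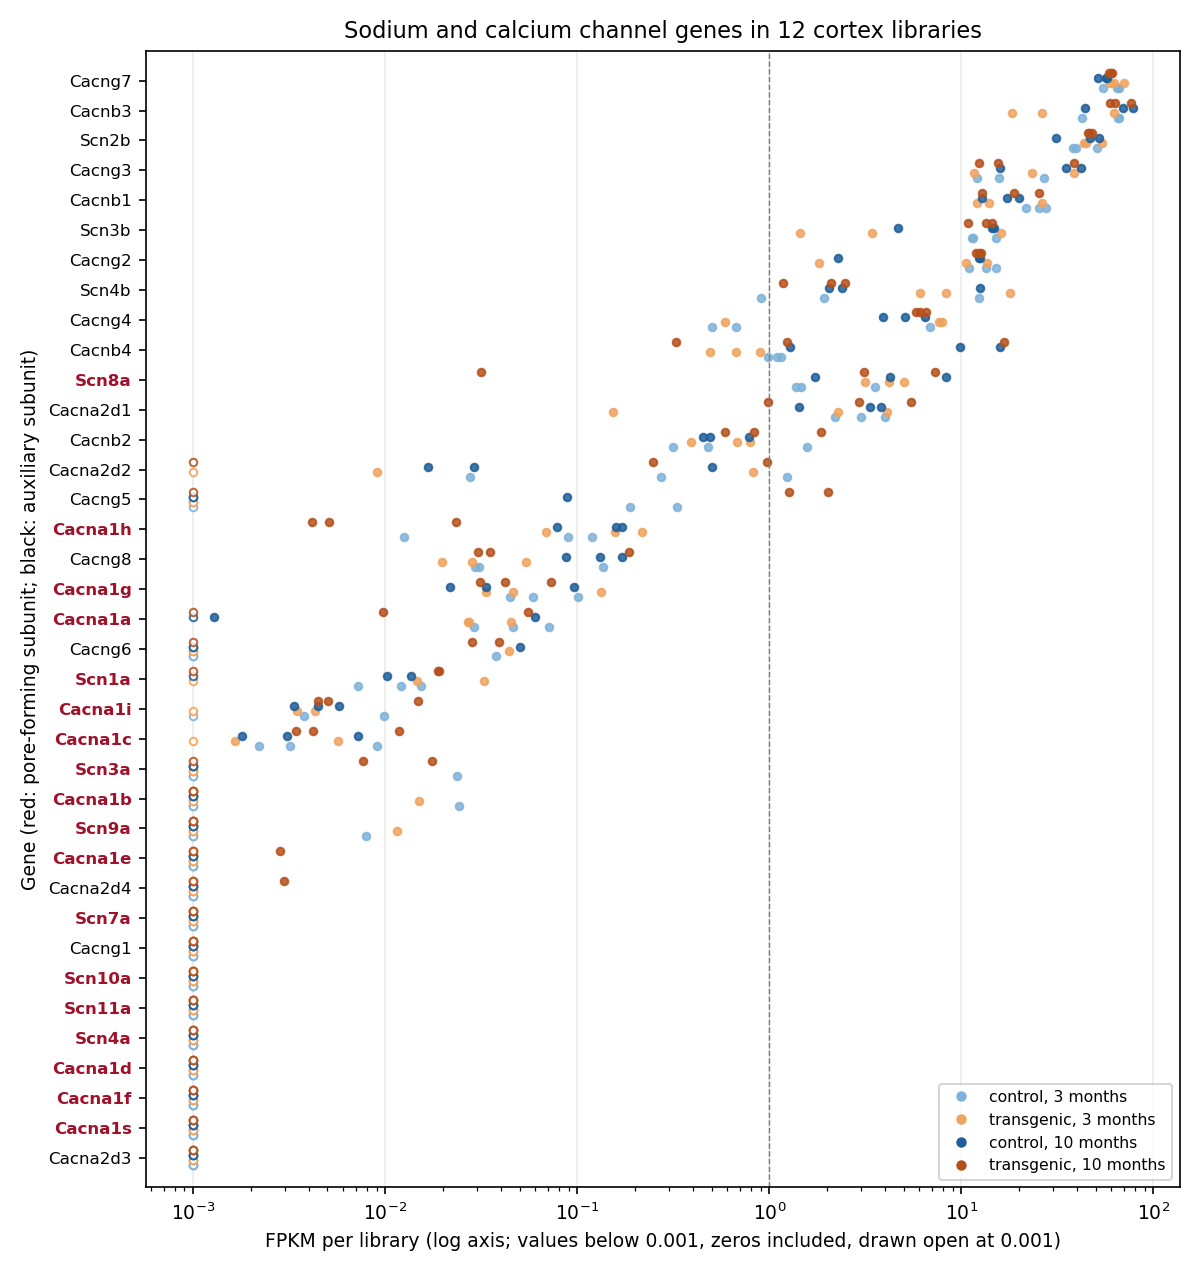
FPKM of channel genes on a log axis, one row per gene ordered by mean, with 1 point per library coloured by age and genotype; values below 0.001, zeros included, are drawn open at 0.001, and the dashed line marks 1 FPKM. Pore-forming genes (red names) fill the lower rows, and only Scn8a among them lies above 1 FPKM in most libraries.

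Exon number also differed by role. Counted in the annotated transcript with the most exons, pore-forming genes had 24 to 49 (median 35), and auxiliary genes 4 to 40 (median 6). The 9 sodium channel pore genes have 20 to 29 exons, and 1 of them had a mean of at least 1 FPKM, whereas 43.9% of the 1684 protein-coding genes in that range did. The 10 calcium channel pore genes and the 4 alpha2delta genes have 30 exons or more, and 1 of these 14, Cacna2d1, had a mean of at least 1 FPKM, against 27.0% of 854 protein-coding genes. In both ranges, a smaller share of the channel genes than of all protein-coding genes reached 1 FPKM. The part of exon number or transcript length in this was not tested.

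**Figure D2:**
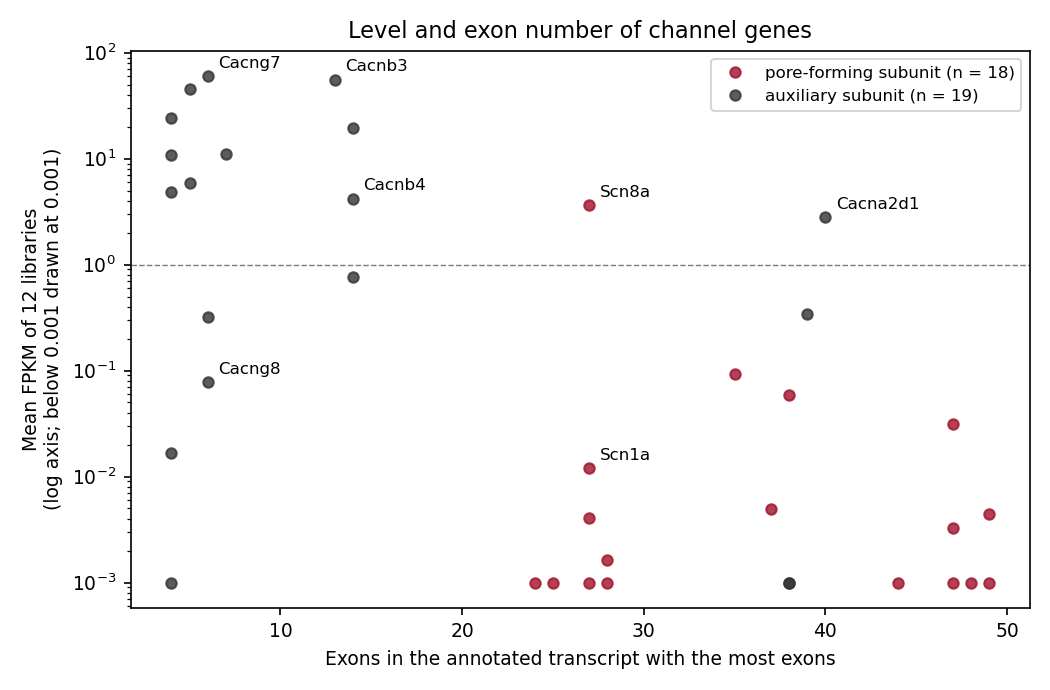
Mean FPKM over 12 libraries (log axis, values below 0.001 drawn at 0.001) against the exon number of the annotated transcript with the most exons, 1 point per gene, red for pore-forming and grey for auxiliary subunits; the dashed line marks 1 FPKM. The many-exon pore-forming genes lie below 1 FPKM apart from Scn8a at 27 exons, and the few-exon auxiliary genes lead the plot.

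Genes that neighbour each other on a chromosome did not always share a level. Coordinates are those of the GENCODE annotation of GRCm38. Cacng7 (chr7:3332955-3368221), Cacng8 (chr7:3390683-3415648) and Cacng6 (chr7:3424195-3435667) lie within 103 kb, and their means were 60.2, 0.0783 and 0.0166 FPKM. Cacng4 (chr11:107732357-107794557), Cacng5 (chr11:107874605-107915055) and Cacng1 (chr11:107703218-107716522) lie within 212 kb, with means of 4.84, 0.324 and 0. Scn2b (chr9:45117782-45130070) and Scn4b (chr9:45138395-45154152) lie within 36.4 kb, with means of 45.0 and 5.85. By contrast, the genes Scn1a, Scn3a, Scn7a and Scn9a, which lie on chromosome 2 within 1328 kb, were all low, with means of 0.0120, 0.00407, 0 and 0.00161. The same held for Scn10a and Scn11a on chromosome 9, both listed at 0.

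The sequence before the transcription start was read from RefSeq (build GRCm38.p6), which held 39 entries for 29 of the genes. The 250 bases before the start are printed 5′ to 3′ for 5 genes, chosen because they are alike in CpG content and far apart in level, or the reverse, and because no annotated exon covers them. Capitals mark CpG dinucleotides, which cluster at the promoters of many widely expressed genes.
Scn8a, chr15:100870395-100870644, plus strand, 30 CpG: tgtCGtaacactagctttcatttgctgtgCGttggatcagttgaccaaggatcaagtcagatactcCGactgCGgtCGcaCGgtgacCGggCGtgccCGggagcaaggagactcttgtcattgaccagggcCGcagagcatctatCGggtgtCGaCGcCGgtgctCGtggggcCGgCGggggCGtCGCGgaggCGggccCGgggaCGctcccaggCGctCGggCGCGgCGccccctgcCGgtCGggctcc
Cacna1b, chr2:24763153-24763402, minus strand, 29 CpG: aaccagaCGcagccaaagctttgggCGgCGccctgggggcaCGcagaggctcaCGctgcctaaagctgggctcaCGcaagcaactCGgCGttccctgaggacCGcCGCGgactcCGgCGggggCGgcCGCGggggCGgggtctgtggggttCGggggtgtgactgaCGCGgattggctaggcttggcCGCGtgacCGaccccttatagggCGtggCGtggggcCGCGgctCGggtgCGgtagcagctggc
Cacna2d1, chr5:15934441-15934690, plus strand, 36 CpG: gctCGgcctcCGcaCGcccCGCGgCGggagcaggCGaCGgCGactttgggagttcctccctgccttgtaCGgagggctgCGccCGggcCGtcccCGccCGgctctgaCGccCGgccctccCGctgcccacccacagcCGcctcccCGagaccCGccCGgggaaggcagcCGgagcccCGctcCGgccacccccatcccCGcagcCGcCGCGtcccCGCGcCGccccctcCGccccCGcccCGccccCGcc
Cacna2d3, chr14:29721865-29722114, minus strand, 30 CpG: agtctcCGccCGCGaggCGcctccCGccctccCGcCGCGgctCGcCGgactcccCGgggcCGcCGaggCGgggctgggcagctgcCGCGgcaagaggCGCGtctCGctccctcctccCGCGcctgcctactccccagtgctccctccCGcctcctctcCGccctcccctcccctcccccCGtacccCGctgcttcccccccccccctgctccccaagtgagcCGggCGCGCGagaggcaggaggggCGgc
Cacng7, chr7:3332575-3332824, plus strand, 9 CpG: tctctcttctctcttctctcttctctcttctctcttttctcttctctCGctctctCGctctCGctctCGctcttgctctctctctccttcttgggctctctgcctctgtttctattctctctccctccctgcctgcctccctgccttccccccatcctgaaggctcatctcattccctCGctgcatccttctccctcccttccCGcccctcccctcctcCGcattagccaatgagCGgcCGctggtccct
Scn8a and Cacna1b are both CpG-rich, with means of 3.62 and 0.00327 FPKM. Cacna2d1 and Cacna2d3 are likewise both CpG-rich, with means of 2.80 and 0. Cacng7 had 9 CpG and a mean of 60.2 FPKM. Taking the richest entry of each gene, the median was 23 CpG in the 10 genes whose mean reached 1 FPKM and 8 in the 19 below, against 12 in 15994 protein-coding genes. At least 20 CpG stood in 6 of those 10 genes, in 6 of those 19 and in 27.1% of the protein-coding genes. The printed entries were picked for their contrast and do not stand for all of these genes.

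Motif letters were searched in the same 250 bases on both strands, and none of the motifs contains another. TTCAGCACC, the left part of the RE1 element bound by the repressor REST, stood in 0 of the 39 entries, and in 0.301% of the 32851 entries of the table. TATAAA, the TATA box, stood in 1 entry (Cacna1d), and in 12.4% of the table. CCAAT stood in 10 entries, and in 33.8% of the table. These are letter matches only.

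Among the sodium channel beta subunits, Scn2b encodes beta2, which is bound to the alpha subunit by a disulfide bridge. It read 39.3, 50.8 and 38.2 FPKM in the 3-month controls, 44.7, 54.0 and 43.5 in the 3-month transgenics, 46.8, 52.2 and 31.0 in the 10-month controls and 48.1, 45.4 and 46.3 in the 10-month transgenics. Its values varied with a coefficient of variation of 14.3%, and all 4 groups overlapped. Scn3b, the gene of beta3, read 11.5, 11.4 and 15.2 FPKM in the 3-month controls, 3.44, 1.44 and 16.1 in the 3-month transgenics, 14.4, 4.65 and 14.7 in the 10-month controls and 10.8, 13.4 and 14.5 in the 10-month transgenics. Scn3b was low in 3 libraries (3-month transgenic 1 and 2, and 10-month control 2), from 2 groups, while the other 9 lay between 10.8 and 16.1.

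Scn4b encodes beta4, linked to the resurgent sodium current of fast-firing neurons. It read 1.92, 12.3 and 0.902 FPKM in the 3-month controls, 8.31, 18.0 and 6.12 in the 3-month transgenics, 2.04, 2.39 and 12.4 in the 10-month controls and 2.48, 2.09 and 1.18 in the 10-month transgenics. Both control groups held 1 library above 12 FPKM and the others below 2.4, so the spread within groups was wide. The 3-month transgenics were all above 6 and the 10-month transgenics all below 2.5. Scn4b had a coefficient of variation of 96.8% over the 12 libraries.

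Of the sodium channel pores, Scn8a, which drives firing from the axon initial segment and nodes of mature neurons, was the one above 1 FPKM. Scn8a read 1.37, 3.55 and 1.46 FPKM in the 3-month controls, 3.14, 5.05 and 4.18 in the 3-month transgenics, 1.72, 8.32 and 4.25 in the 10-month controls and 3.10, 7.27 and 0.0313 in the 10-month transgenics. The 10-month transgenic 3 library stood apart, at 0.0313, and the next lowest value was 1.37. Scn1a, the main channel of fast-spiking inhibitory neurons, whose loss causes Dravet syndrome, read 0.0120, 0.00724 and 0.0153 FPKM in the 3-month controls, 0, 0.0328 and 0.0146 in the 3-month transgenics, 0, 0.0137 and 0.0103 in the 10-month controls and 0.0189, 0.0191 and 0 in the 10-month transgenics. Scn3a, prominent before birth, was above 0 in 3 libraries, with a highest value of 0.0236. Scn2a1, the gene of the alpha subunit of excitatory axons, ranged from 0 to 0.0643 FPKM. Scn9a, a channel of pain-sensing neurons, was listed at 0 in 10 libraries and reached 0.0114. The channels of skeletal muscle (Scn4a), glia and sensory neurons (Scn7a) and pain-sensing neurons (Scn10a, Scn11a) were listed at 0 throughout.

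Of the calcium channel pores, none reached a mean of 0.1 FPKM. Cacna1h, of the low-threshold T type, had the highest mean, 0.0920 FPKM, and read 0.119, 0.0125 and 0.0892 FPKM in the 3-month controls, 0.157, 0.0683 and 0.218 in the 3-month transgenics, 0.1698, 0.160 and 0.0782 in the 10-month controls and 0.0234, 0.00415 and 0.00510 in the 10-month transgenics. Cacna1g, of the T type of thalamic relay neurons, read 0.0587, 0.0446 and 0.101 FPKM in the 3-month controls, 0.133, 0.0333 and 0.0462 in the 3-month transgenics, 0.0216, 0.0335 and 0.0956 in the 10-month controls and 0.0727, 0.0421 and 0.0312 in the 10-month transgenics. The 10-month transgenics were low for Cacna1h, with a highest value of 0.0234, and not for Cacna1g, where all groups overlapped. Both genes were below the filter for testing. Cacna1i, the other T-type gene, reached 0.0147. Cacna1a, the P/Q-type pore of presynaptic terminals, read 0.0464, 0.0290 and 0.0715 FPKM in the 3-month controls, 0.0451, 0.0270 and 0.0273 in the 3-month transgenics, 0.00128, 0.0604 and 0 in the 10-month controls and 0.00974, 0.0555 and 0 in the 10-month transgenics. Cacna1b (N type) and Cacna1e (R type), also presynaptic, were each listed at 0 in 10 libraries, with highest values of 0.0242 and 0.00281. Cacna1c, the L-type pore of neurons and heart, was above 0 in 11 libraries but reached only 0.0118. The remaining L-type genes Cacna1d, Cacna1f (retina) and Cacna1s (skeletal muscle) were listed at 0.

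Calcium channel beta subunits sit in the cytoplasm and bring the pore to the membrane. Cacnb3 was the highest of them, and read 42.2, 65.2 and 66.0 FPKM in the 3-month controls, 26.2, 61.9 and 18.2 in the 3-month transgenics, 78.0, 69.2 and 44.2 in the 10-month controls and 59.3, 63.2 and 76.4 in the 10-month transgenics. The 3-month transgenic 1 and 3 libraries were the lowest, and the other 10 lay between 42.2 and 78.0. Cacnb3 made up 57.6% to 80.3% of the summed beta subunits (median 68.6%). Cacnb1, the isoform also found in skeletal muscle, read 21.8, 27.5 and 25.4 FPKM in the 3-month controls, 14.0, 26.3 and 12.0 in the 3-month transgenics, 12.8, 19.97 and 17.3 in the 10-month controls and 12.7, 18.8 and 25.3 in the 10-month transgenics. Its values were within 2.29-fold of each other.

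Cacnb4, whose loss causes seizures and ataxia in the lethargic mouse, read 0.978, 1.15 and 1.10 FPKM in the 3-month controls, 0.491, 0.890 and 0.673 in the 3-month transgenics, 15.8, 1.28 and 9.78 in the 10-month controls and 1.24, 16.6 and 0.328 in the 10-month transgenics. Those values formed 2 levels, with 3 libraries at 9.78 to 16.6 FPKM (10-month control 1 and 3, and 10-month transgenic 2) and 9 at 0.328 to 1.28. The high libraries came from both genotypes at 10 months. Cacnb2, the main beta subunit of heart, had a mean of 0.769 FPKM and a range of 0.314 to 1.86. In the annotation 15 other genes overlap it, and no source used here says whether counting took account of strand.

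The alpha2delta subunits raise the number of channels at the membrane, and Cacna2d1 and Cacna2d2 encode the binding sites of gabapentin. Cacna2d1 read 2.19, 2.99 and 3.99 FPKM in the 3-month controls, 0.153, 2.28 and 4.09 in the 3-month transgenics, 1.43, 3.80 and 3.32 in the 10-month controls and 2.93, 5.46 and 0.982 in the 10-month transgenics. The 3-month transgenic 1 library was the lowest, at 0.153, and the next was the 10-month transgenic 3 library, at 0.982. Cacna2d2 read 1.24, 0.273 and 0.0275 FPKM in the 3-month controls, 0, 0.00908 and 0.819 in the 3-month transgenics, 0.0168, 0.0289 and 0.500 in the 10-month controls and 0.249, 0.9748 and 0 in the 10-month transgenics. It thus ranged from listed at 0 to above 1 FPKM within the set. Cacna2d4, a subunit of the retina, was above 0 in 1 library, at 0.00297, and Cacna2d3 was listed at 0.

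Among the AMPA receptor regulators, Cacng7, of the type II regulators, had the highest level, and it varied least of the tested channel genes. Cacng7 read 66.3, 64.3 and 54.8 FPKM in the 3-month controls, 70.3, 62.5 and 59.3 in the 3-month transgenics, 56.5, 57.1 and 51.6 in the 10-month controls and 58.7, 60.0 and 61.0 in the 10-month transgenics. Its coefficient of variation was 8.55%, and the 12 values lay within 1.36-fold of each other. Cacng7 made up 49.6% to 81.6% of the summed regulators (median 62.7%). The neighbouring Cacng8, a regulator prominent in hippocampus, ranged from 0.0197 to 0.186 FPKM.

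Cacng3, a relative of stargazin abundant in forebrain, read 12.0, 15.7 and 26.9 FPKM in the 3-month controls, 23.4, 11.6 and 38.6 in the 3-month transgenics, 15.9, 35.2 and 42.0 in the 10-month controls and 38.5, 15.5 and 12.3 in the 10-month transgenics. Each group held values on both sides of 20 FPKM. Cacng2, the stargazin gene, mutated in the epileptic and ataxic stargazer mouse, read 13.4, 10.9 and 15.2 FPKM in the 3-month controls, 10.6, 1.81 and 13.7 in the 3-month transgenics, 12.5, 12.3 and 2.28 in the 10-month controls and 12.3, 12.7 and 11.9 in the 10-month transgenics. Cacng2 lay between 10.6 and 15.2 in 10 libraries and at 1.81 and 2.28 in the 3-month transgenic 2 and 10-month control 3 libraries. An antisense gene, A730060N03Rik, overlaps Cacng2. Genes on the opposite strand also overlap other tested channel genes, among them Scn2b, which had no such low libraries. The part of such overlaps in the values was not tested. Cacng4 read 0.671, 0.500 and 6.88 FPKM in the 3-month controls, 7.63, 0.584 and 7.92 in the 3-month transgenics, 3.92, 6.45 and 5.11 in the 10-month controls and 6.50, 6.10 and 5.81 in the 10-month transgenics. Cacng4 was below 0.7 FPKM in 3 libraries of the 3-month groups (control 1 and 2, and transgenic 2) and above 3.9 in the other 9.

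Cacng5, also of the type II regulators, read 0.188, 0 and 0.330 FPKM in the 3-month controls, 0 in all 3-month transgenics, 0, 0 and 0.0885 in the 10-month controls and 2.02, 1.26 and 0 in the 10-month transgenics. The 2 values above 1 FPKM were in 10-month transgenic libraries, and the third library of that group was listed at 0. The highest, at 2.02, was in the library with pituitary markers, where Gh read 11228 FPKM; in the next, at 1.26, Gh read 2.46. The part of pituitary RNA in Cacng5 was not tested. Cacng6, close in sequence to the muscle gamma subunit Cacng1, reached 0.0502, and Cacng1 was listed at 0.

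Several genes had step-like values, in a share near that of all tested genes. A gap of at least 4-fold between neighbouring libraries (2 on the log2 scale), after sorting the 12 values of a gene, appeared in 5 of the 15 tested channel genes (33.3%: Scn8a, Cacnb4, Cacng4, Cacng2 and Cacna2d1) and in 29.3% of all 9846 tested genes. The libraries below the gap differed between the genes: 1 for Scn8a and Cacna2d1, 2 for Cacng2, 3 for Cacng4 and 9 for Cacnb4. Over all tested genes, such gaps were found in 62.8% of those with 1 annotated transcript and in 15.4% of those with 11 or more. Of the channel genes with a gap, Cacng2 has 1 annotated transcript, Cacng4 has 2, Cacnb4 has 6, Cacna2d1 has 12 and Scn8a has 20. What made the gaps was not tested.

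**Figure D3:**
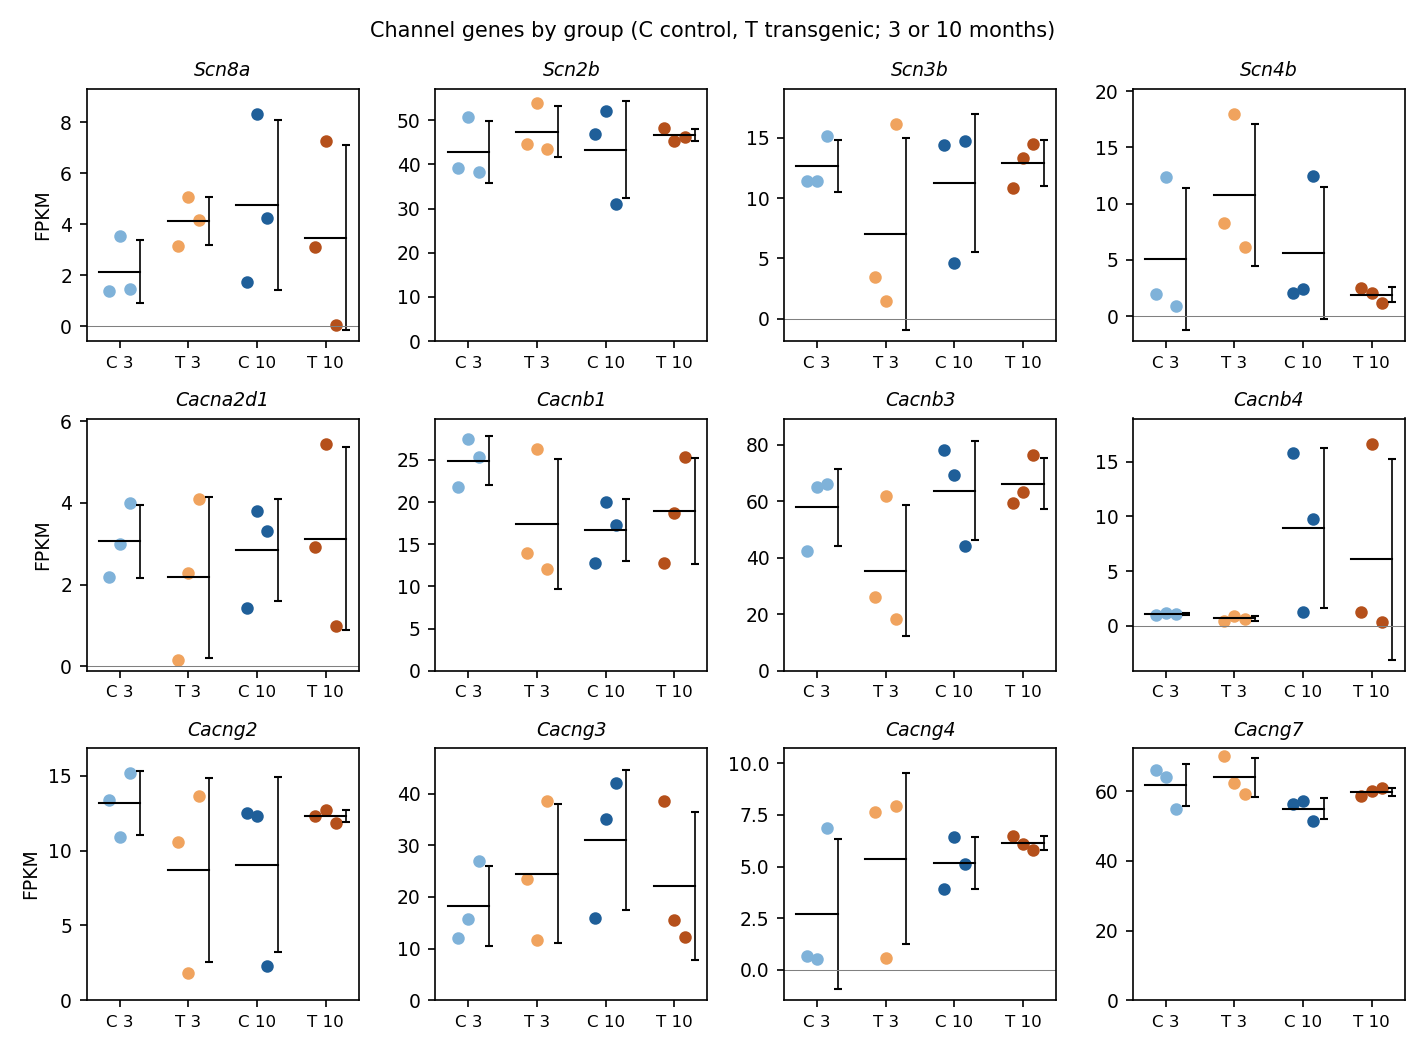
FPKM of 12 channel genes by group (C control, T transgenic, 3 or 10 months), with 1 point per library, a black line at the mean and a bar of 1 SD (n = 3); axes are linear and begin at or below 0, since some SD bars pass below 0. Cacng7 and Scn2b hold a narrow range in all 4 groups, while Cacnb4 has 3 high libraries, Cacng2 has 2 low ones, Cacng4 has 3 low ones and Scn8a has 1 low one.

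For the group comparisons, a gene was tested where any group mean reached 1 FPKM, which left 15 of the 39 channel genes, Scn8a and 14 auxiliary genes. Cacnb2 and Cacng5 passed through the 10-month transgenic mean alone (1.09 ± 0.677 and 1.09 ± 1.02 FPKM, SD, n = 3), so a difference there is partly set by the filter. Differences are on the scale of log2(FPKM + 0.1), with standard errors (SE), tested with limma and adjusted by the Benjamini-Hochberg method over all 9846 genes. The threshold was an adjusted p of 0.05. No channel gene passed it in any comparison, so none is called changed. The labels name no batch, and p-values measure only the spread between these libraries.

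At 3 months, transgenic against control, 0 of 15 channel genes passed the adjusted threshold, against 0.0406% of all tested genes, and the smallest adjusted p (limma) was 1. At an unadjusted p below 0.05 there were 0, against 3.39%. The median difference was -0.13, against 0.02 over all tested genes, with 6 channel genes above 0 and 9 below. Cacnb4 was the one gene whose groups did not overlap, lower in all 3 transgenic libraries (0.978, 1.15 and 1.10 FPKM against 0.491, 0.890 and 0.673). That is 1 of 15, and 7.98% of all tested genes had no overlap. Its difference was -0.61 (SE 1.24, adjusted p 1 in limma). The means were 1.08 ± 0.0872 and 0.684 ± 0.200 FPKM (SD, n = 3). The SE of a gene rests on a spread pooled over all 4 groups. For Cacnb4 it takes in the 10-month libraries, which ran from 0.328 to 16.6 FPKM, so it does not measure the 3-month spread alone.

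Larger differences at 3 months came with overlapping groups. Scn4b had the largest positive one, 1.74 (SE 0.95), from means of 5.05 ± 6.33 and 10.8 ± 6.31 FPKM (SD, n = 3). Cacnb3 differed by -0.87 (SE 0.41), from 57.8 ± 13.5 and 35.5 ± 23.3. For Scn3b the difference was -1.50 (SE 0.74), from 12.7 ± 2.16 and 7.00 ± 7.96. The transgenic groups were split, with 1 library of Cacnb3 within the control range and 1 of Scn3b above it. The adjusted p was 1 in limma for each. These differences depended on single libraries. Leaving out 3-month control 3 gave 0.97 for Scn4b, and leaving out control 2 gave 2.79. Leaving out 3-month transgenic 2 gave -1.37 for Cacnb3 and -0.74 for Scn3b, and leaving out transgenic 3 gave -0.49 and -2.44. The number at an unadjusted p below 0.05 was 3 without the 3-month transgenic 2 library and at most 1 without any other.

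At 10 months, the libraries labelled transgenic against those labelled control gave 0 of 15 past the adjusted threshold, against 0.0102% of all tested genes, with a smallest adjusted p (limma) of 0.969. At an unadjusted p below 0.05 there were 0, against 4.4%. The median difference was 0.14, against 0.01 over all tested genes, with 10 channel genes above 0 and 5 below. Those above 0 include Cacnb2 (0.71) and Cacng5 (2.42), which passed the filter through the 10-month transgenic mean alone, so the median and counts are partly set by it. Cacng7 was the one gene without overlap, higher in all 3 libraries labelled transgenic, at 58.7, 60.0 and 61.0 FPKM against 56.5, 57.1 and 51.6. That is 1 of 15, and 8.26% of all tested genes had no overlap. Its difference was 0.12 (SE 0.14, 95% interval -0.18 to 0.43). The lack of overlap is that of unscaled FPKM. Size factors, which scale each library, were 1.05, 0.980 and 1.16 for those labelled transgenic and 1.11, 1.03 and 0.976 for those labelled control. Divided by them, the Cacng7 groups overlap, and with that scaling the difference was 0.09. Cacng7 had the narrowest interval of the tested channel genes.

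Cacng5 had the largest positive difference at 10 months, 2.42 (SE 1.16, 95% interval -0.17 to 5.01), from 0.0295 ± 0.0511 and 1.09 ± 1.02 FPKM (SD, n = 3). Without the library holding pituitary markers it no longer passed the filter. Cacnb4 had the largest negative one, -1.50 (SE 1.24), from 8.95 ± 7.29 and 6.07 ± 9.17. Both groups held high and low libraries of Cacnb4.

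**Figure D4:**
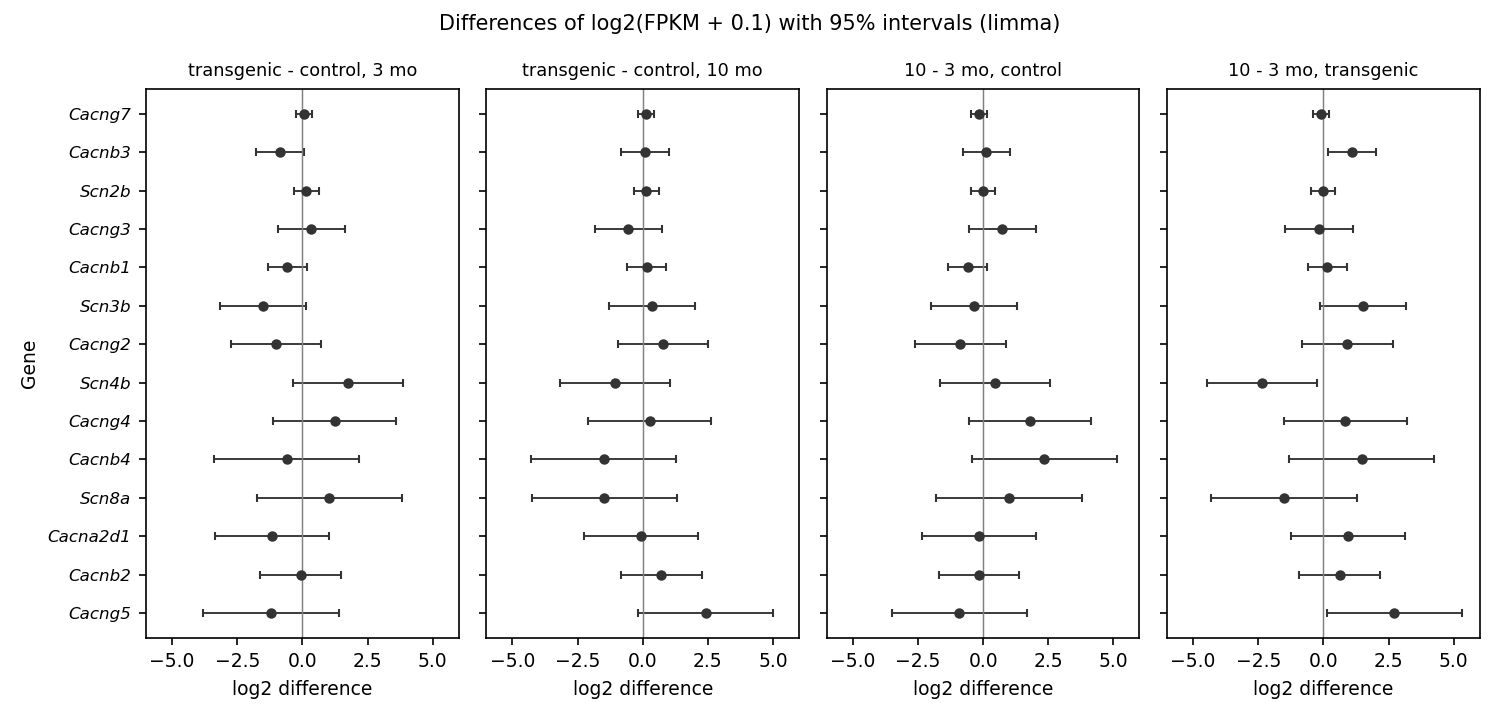
Differences of log2(FPKM + 0.1) for tested channel genes in 4 comparisons, with a point at the limma estimate and a bar for its 95% interval; the vertical line marks 0. Intervals are narrow for Cacng7 and Scn2b and wide for Scn8a, Cacnb4 and Cacng5, and those that leave out 0 belong to Cacnb3, Scn4b and Cacng5 between ages in the transgenics.

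The difference between both genotype effects, that is the 10-month effect minus the 3-month effect, passed the adjusted threshold for 0 of 15 channel genes, against 0.0508% of all tested genes, with a smallest adjusted p (limma) of 0.987. At an unadjusted p below 0.05 there were 0, against 3.32%. The median was 0.35, against -0.02 over all tested genes, with 9 above 0 and 6 below. Here too Cacnb2 (0.79) and Cacng5 (3.63) are above 0, partly through the filter. Cacng5 had the smallest p on the positive side, with 3.63 (SE 1.65), and Scn4b on the negative side, with -2.81 (SE 1.34). Scn4b was higher on average in transgenics at 3 months and lower at 10 months, and neither effect passed the threshold.

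Age was compared within each genotype, 10 months against 3 months. The ages were deposited in separate tables, so age and table cannot be told apart. In controls, 0 of 15 channel genes passed, against 0.0305% of all tested genes, with a smallest adjusted p (limma) of 0.994. At an unadjusted p below 0.05 there were 0, against 4.19%, and the median was -0.00, against 0.06 over all tested genes. Groups did not overlap for 2 of 15, against 10.1% of all tested genes. Cacnb4 was higher in all 3 older controls (15.8, 1.28 and 9.78 FPKM against 0.978, 1.15 and 1.10), with a difference of 2.36 (SE 1.24). Cacnb1 was lower in all 3 (12.8, 19.97 and 17.3 against 21.8, 27.5 and 25.4), with a difference of -0.59 (SE 0.34). The control ranges of Cacnb4 nearly met, at 1.15 and 1.28 FPKM. The older control 1 library, the highest control for Cacnb4, read 42.7 FPKM for Mapt, against 6.64 to 12.0 in the 3-month controls. Its Thy1, at 115 FPKM, lay within the 105 to 140.5 of the 3-month controls, so these label genes disagreed for that library.

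In transgenics, 0 of 15 passed, against 0.0203% of all tested genes, with a smallest adjusted p (limma) of 0.974. At an unadjusted p below 0.05 there were 3 of 15, against 4.31% of all tested genes: Cacnb3, Scn4b and Cacng5. The median was 0.63, against 0.05 over all tested genes, with 10 above 0 and 5 below. Cacnb2 (0.63) and Cacng5 (2.72), which passed the filter through the 10-month transgenic mean alone, are among those above 0. The median and these counts are therefore partly set by the filter. So is the number at an unadjusted p below 0.05, which takes in Cacng5. Cacnb3 differed by 1.09 (SE 0.41, unadjusted p 0.0248 in limma), from 35.5 ± 23.3 to 66.3 ± 8.97 FPKM (SD, n = 3), with overlapping groups. Cacng5 differed by 2.72 (SE 1.16, unadjusted p 0.0413 in limma), from a group listed at 0, so that value is set by the added 0.1. The number at an unadjusted p below 0.05 was 0 without the 3-month transgenic 1 library, 1 without 3-month transgenic 2 and 1 without 10-month transgenic 3.

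Groups did not overlap between ages in the transgenics for 2 of 15, against 9.43% of all tested genes, and Scn4b was among them. Scn4b was lower in all 3 older libraries (2.48, 2.09 and 1.18 FPKM against 8.31, 18.0 and 6.12), with a difference of -2.34 (SE 0.95, unadjusted p 0.0327 in limma). Striatal marker sums, largely Ppp1r1b, were 13.4 to 33.0 FPKM in the younger and 15.5 to 34.2 in the older transgenics, and overlapped. The part of striatal RNA in Scn4b was not tested. The older transgenics were those whose Mapt and Thy1 did not follow the labels.

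The precision set by 3 libraries a group, with the spread of each gene pooled over all 4 groups, differed widely between genes. The SE of a difference between 2 groups ran from 0.14 for Cacng7 to 1.25 for Scn8a, with a median of 0.74. The 95% intervals of Scn8a and Cacnb4 therefore spanned several log2 units, and a p that misses the threshold does not show that their groups were alike.

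The proteins that hold or regulate these channels were listed as well: 24 partner genes, of which 16 were tested. None passed the adjusted threshold (limma) in the 5 comparisons, and the number at an unadjusted p below 0.05 was 1 of 16 in each, apart from the age effect in controls with 0. Over all tested genes that share was 3.32% to 4.4%, so 1 of 16 is near it. Partners without overlap between groups are to be read against 7.98% to 10.1% of all tested genes. Fgf12, an intracellular factor that binds the tail of sodium channels, read 1.298, 1.58 and 2.41 FPKM in the libraries labelled control at 10 months and 0.645, 0.892 and 0.640 in those labelled transgenic, without overlap. Its difference was -1.14 (SE 0.41, adjusted p 0.969 in limma).

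The other partners with the smallest p in a direction had an adjusted p of at least 0.969 in limma. Fgf11 differed by 2.01 (SE 1.22) at 10 months, and was listed at 0 in the 10-month control 2 library. Rem2, a small GTP-binding inhibitor of calcium channels, differed by 1.62 (SE 0.97) at 3 months, where the controls read 1.45, 1.57 and 0 and the transgenics 1.64, 2.34 and 1.66, without overlap. Sptbn4, a spectrin of the axon initial segment, read 13.1, 14.3 and 11.4 in the 3-month and 10.8, 9.93 and 10.0 in the 10-month controls, without overlap, a difference of -0.33 (SE 0.27). Nalcn, the pore of the sodium leak channel, was listed at 0 in the 3-month transgenic 1, 10-month control 1 and 10-month transgenic 3 libraries and read 1.99 to 7.89 FPKM in the other 9.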

How the data were processed

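RNA from the cortex of 12 mice was measured as stranded, rRNA-depleted total RNA libraries, per the labels' protocols. The authors deposited FPKM per gene and library, in a separate table for each age. The tools were StringTie 1.3.0, HISAT2 2.0.4, R 3.4.2 and SAMtools 0.0.19, and the builds mm10 and GRCm38, per the submitters' processing notes, which give no options. The authors' deposited tables also give a fold change (a ratio and its log2) and p-values and q-values; the test behind them is not stated per the file headers. Groups and replicate numbers were taken from the labels.

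FPKM were analysed as log2(FPKM + 0.1), without further scaling. A gene was tested where any group mean reached 1 FPKM (9846 of 48526), with limma 3.58.1 in R 4.3.3, with a mean per group over all 12 libraries and eBayes with trend and robust. Adjustment was by Benjamini-Hochberg over the tested genes, at 0.05. The fit was run on simulated data with normally distributed noise, where the only requirement was on the size of the estimated differences. Such noise does not stand for step-like values. Fold changes on this scale understate those of low genes. Depth is unknown and 3 libraries a group limit the precision. Alternatives were other pseudocounts, filters, scalings and fits, a replicate block, and leaving out each library.

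Genes were named by a rule: the 3 highest of each list of subunits, those past the threshold, and in each comparison those without overlap, or else with the smallest p in each direction. The genes and lists were chosen with earlier results of these data known. Positions, exons and overlaps are from GENCODE; 468 gene IDs had no location. Values of some genes named by that rule are not reported here, and they are left out of the figures; counts over the genes include them.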

Additional observations from a re-analysis of the deposited data

How the results depend on the processing

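The number of channel genes past the adjusted threshold was 0 in each of the 5 comparisons under all 104 alternative values, and the smallest adjusted p among them (limma) was 0.299, for the age effect in transgenics. The 15 named differences kept their sign in all 307 alternative values. Cacng5 had no value with a filter at 5 FPKM or without the 10-month transgenic 1 library. Its difference between ages in transgenics ran from 0.92 to 4.89 over the other settings. The difference of Cacnb4 at 10 months ran from -2.99 to -0.34 when a library was left out. When a library was left out, the number of channel genes at an unadjusted p below 0.05 ran from 0 to 1 at 10 months, 0 to 3 at 3 months, 0 to 2 for the interaction, 0 to 1 for age in controls and 0 to 3 for age in transgenics. Over all genes tested, leaving out a library moved the number past the threshold from 4 to between 4 and 12 at 3 months, from 1 to between 0 and 8 at 10 months, from 5 to between 2 and 11 for the interaction, from 3 to between 3 and 10 for age in controls, and from 2 to between 2 and 13 for age in transgenics. With the replicate number as a block, 0 channel genes passed, and 1 gene of all did, for age in transgenics. No pairing by number was seen: same-numbered deviations correlated between -0.123 and 0.00551 over 6 pairs, and 0 of 6 controls correlated best with their own number. Deviations from means of 3 libraries can miss a shared litter or batch, so pairing is not excluded. Depth is unknown, so values near 0 set no limit of detection.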

Other observations

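In the authors' deposited table, 28 channel genes had a p-value at 3 months and 27 at 10 months. At 3 months 3 of them had p below 0.05 in the authors' deposited table: Cacnb4 (0.0283), Scn8a (0.0295) and Cacna1h (0.0325). At 10 months the authors' deposited table also gave 3: Cacng5 (0.00915), Scn3a (0.0288) and Cacna1h (0.0333). The smallest q-value in the authors' deposited table was 0.904 at 3 months and 0.843 at 10 months. The share of all genes with p below 0.05 in the authors' deposited table was not computed, so these counts are not a result about channel genes. Cacna1h had an authors' ratio of transgenic to control of 1.10 at 3 months and 0.896 at 10 months. Its mean FPKM at 3 months were 0.0736 in controls and 0.148 in transgenics. At 10 months they were 0.136 in the libraries labelled control and 0.0109 in those labelled transgenic. The authors' ratio is therefore not a plain ratio of mean FPKM, and it understates the distance between these means. For Scn3a the authors' ratio was 1.01 at 10 months, where the mean FPKM were 0 and 0.00841. Cacna1h and Scn3a were below the filter used here.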
